A study of Mus musculus with 4 samples.

Results

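Natural killer (NK) cells are innate lymphocytes that kill tumour cells without antigen priming, and in the mouse they carry the receptor NKp46, encoded by Ncr1. In these data they were 455 of 9256 cells from tumour-bearing lungs. Barcodes with at least 200 genes and at most 10% mitochondrial UMIs (unique molecular identifiers, which count RNA molecules) were kept. An NK cell had at least 1 UMI of Ncr1 or Klre1 and at least 4 UMIs of Gzma, Prf1, Ncr1 and Klre1 together. It also had 0 UMIs of Cd3e, Cd3d, Cd3g and Cd79a, at most 5 of Lyz2 and at most 2 of C1qa, C1qb and C1qc together. The cells were thus chosen by these transcripts, so their levels describe the population and are not evidence about it.

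The lungs were those of Balb/c mice that had received tumour cells of the 4T1 line, derived from a mouse mammary carcinoma, through a vein 14 days before. In the PD-L1 KO group the injected cells lacked PD-L1, and in the WT group they were the unmodified line, with 2 libraries in each group. The knockout was in the tumour cells alone, so the NK cells of every library carried an intact gene for PD-L1 (Cd274). Lungs were perfused and digested, white blood cells were enriched on CD45 beads, and 3' single-cell libraries were made. Nothing in the labels tells if a group's libraries came from separate mice or pools, nor if the knockout line was 1 clone. The p-values can therefore cover no more than the spread between libraries. In the gene tests the estimate of that spread is shared over genes, so a p-value does not measure the spread of that gene alone. Mouse age and sex are not in the labels. The series asks what PD-L1 on tumour cells does to type I interferon and to cytotoxic lymphocytes in the lung.

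NK cells read missing MHC class I through inhibitory receptors of the Ly49 and NKG2A families, and read stress ligands and antibody through activating receptors such as NKG2D, NKp46 and CD16. They kill by releasing perforin and granzymes, and they recruit and instruct other cells with interferon gamma and the chemokines Ccl3, Ccl4, Ccl5 and Xcl1. Type I interferon acts on them through Ifnar1 and Ifnar2 and turns on antiviral genes, and in mouse NK cells it is known to raise cytotoxicity.

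The libraries held 2370 to 2736 barcodes, of which 2062 to 2509 were kept, with 17618220 to 19635983 UMIs in each. The NK gate found 97 and 104 cells in PD-L1 KO lungs, against 157 and 97 in WT lungs. Summed over these cells, the NK profiles held 358952 and 401221 UMIs in PD-L1 KO lungs and 498455 and 419343 in WT lungs. The median NK cell had 2902 and 2696 UMIs in PD-L1 KO lungs and 2733 and 3264 in WT lungs. Any pair of libraries shared at most 3 barcodes, counted before filtering, and no NK barcode was shared. The names of the deposited files carry the opposite condition from the sample labels, so every direction below rests on the labels. The knockout itself could not be checked here, because Cd274 was deleted in the injected cells and not in the white blood cells.

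NK cells made up 4.27% (exact 95% binomial interval 3.48 to 5.19%) and 5.04% (4.14 to 6.08%) of cells in PD-L1 KO lungs. In WT lungs they made up 6.26% (5.34 to 7.28%) and 4.02% (3.27 to 4.88%). The mean share was 4.66% ± 0.545 in PD-L1 KO lungs and 5.14% ± 1.58 in WT lungs (SD, n = 2 each). The WT libraries lay on either side of the PD-L1 KO libraries, and the difference of −0.479 percentage points gave p = 1 in a two-sided exact permutation test, whose smallest possible p is 0.333. The share takes other cells as its denominator, and with lymphocytes alone as the denominator the difference was 1.46 points in the other direction, with an exact permutation p of 0.667.

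The gated cells carried the NK programme. Ncr1, which encodes the activating receptor NKp46, had a UMI in 99.0% and 95.2% of NK cells in PD-L1 KO lungs and in 95.5% and 99.0% in WT lungs. Eomes, a transcription factor of conventional NK cells that the gate did not use, was found in 60.8% and 54.8% of NK cells in PD-L1 KO lungs and in 65.6% and 67.0% in WT lungs. T cells, gated on at least 2 UMIs of Cd3e, Cd3d and Cd3g together and no Ncr1 or Klre1, had an Eomes UMI in 3.43% to 6.97% of cells. Klrk1 (NKG2D) was found in 88.7% and 86.5% of NK cells in PD-L1 KO lungs, against 79.6% and 92.8% in WT lungs, and in 7.43% to 16.9% of T cells. Il2rb, the beta chain of the IL-2 and IL-15 receptors, was found in 89.4% to 91.8% of NK cells and 24.6% to 44.3% of T cells. T cell receptor alpha transcripts (Trac) were found in 4.12% and 2.88% of NK cells in PD-L1 KO lungs and 0.637% and 3.09% in WT lungs, against 69.7% to 78.1% of T cells. Trbc1, the constant region of the T cell receptor beta chain, was present in 66.3% to 74.2% of NK cells. Zfp683, which marks tissue-resident lymphocytes, had 0 NK UMIs in all 4 libraries.

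**Figure D1:**
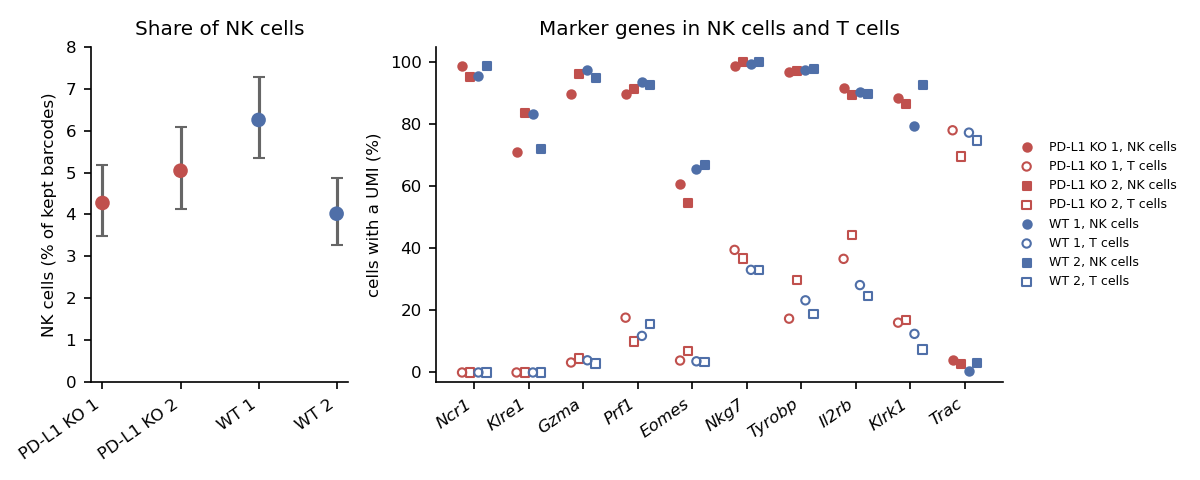
The share of kept cells that met the NK gate in each library with exact 95% binomial intervals (left, percent), and the percent of cells with at least 1 UMI of 10 genes in NK cells (filled points) and T cells (open points) of each library (right). The shares of the PD-L1 KO libraries, 4.27% and 5.04%, lie between those of the WT libraries, and Eomes is found in 54.8% to 67.0% of NK cells but in at most 6.97% of T cells. Ncr1 and Klre1 are at 0 in T cells because the T cell gate required it.

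Few barcodes sat at the edge of the gate. The summed UMIs of Gzma, Prf1, Ncr1 and Klre1 had medians of 47 and 48.5 in PD-L1 KO NK cells and 56 and 58 in WT NK cells. Only 5 and 3 PD-L1 KO cells and 6 and 4 WT cells lay just inside the limit, with sums of 4 to 9. Just outside it, with sums of 1 to 3, were 4 and 4 PD-L1 KO barcodes and 4 and 2 WT barcodes. A further 30 and 26 PD-L1 KO barcodes and 38 and 33 WT barcodes met every part of the rule except for carrying CD3 transcripts.

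Some NK barcodes also carried the transcripts of another cell type. A barcode was called mixed where it held at least 10 UMIs of any 1 of 7 marker lists of other cell types, a definition chosen after the values were seen. There were 10 and 12 such barcodes in PD-L1 KO lungs, against 10 and 8 in WT lungs. They held 21.1% and 32.1% of all NK UMIs in PD-L1 KO lungs, against 9.60% and 28.4% in WT lungs. WT 1 stood apart from the other libraries in this share. By this definition every other NK barcode held fewer than 10 UMIs of each such list. The highest of them held 9 and the lowest mixed barcode held 12, so no wide gap lay at the limit.

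Most mixed barcodes were mixed with neutrophil transcripts, which encode granule and calcium-binding proteins such as S100a8 and S100a9. The neutrophil list reached 10 UMIs in 7 and 10 PD-L1 KO barcodes and in 8 and 6 WT barcodes. All 8 of its genes were detected in each library, and summed they made 5572 and 9212 CPM (UMIs per 1000000 NK UMIs) in PD-L1 KO NK sums and 6903 and 5931 CPM in WT NK sums. Without the mixed barcodes the same list summed to 84.7 and 162 CPM in PD-L1 KO lungs and 66.6 and 86.6 CPM in WT lungs, a fall that follows from the definition. The dendritic cell list, of which 6 and 7 of 8 genes were detected in PD-L1 KO lungs and 3 and 3 in WT lungs, summed to 515 and 1538 CPM in PD-L1 KO lungs, against 70.2 and 358 CPM in WT lungs. Without mixed barcodes the dendritic list came to 124 and 169 CPM in PD-L1 KO lungs and 57.7 and 66.6 CPM in WT lungs, so PD-L1 KO was above WT in both forms. Flt3 and Clec9a were at 0 in PD-L1 KO 1 and in both WT libraries, and Siglech was at 0 in PD-L1 KO 2 and in both WT libraries. Because these transcripts entered the sums unevenly, the counts and medians of each gene list below are given for all NK cells and for NK cells without mixed barcodes, while values of single genes are from all NK cells unless stated.

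**Figure D2:**
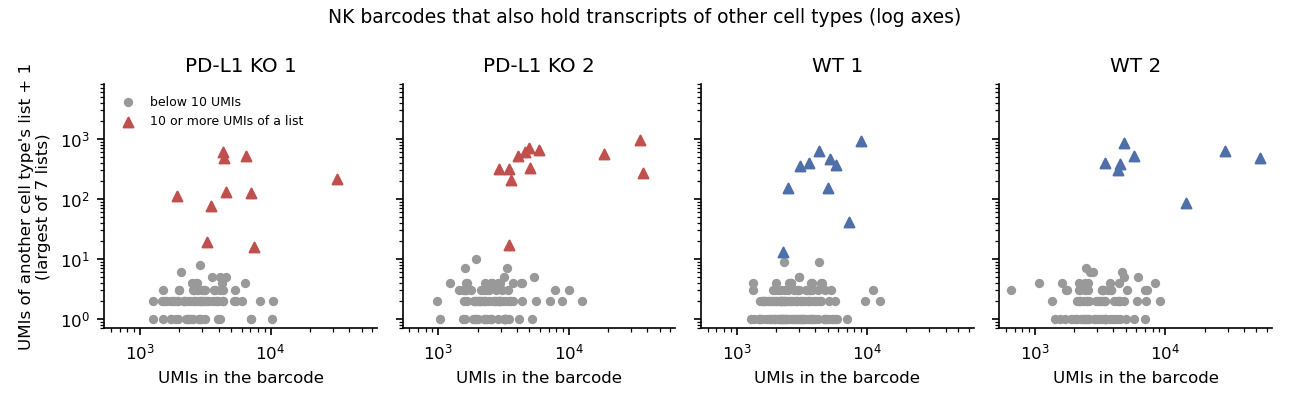
Each point is 1 NK barcode of the named library, placed by its total UMIs (log axis) and by its UMIs of the most abundant marker list of another cell type plus 1 (log axis). Triangles mark mixed barcodes with at least 10 such UMIs (10, 12, 10 and 8 in PD-L1 KO 1, PD-L1 KO 2, WT 1 and WT 2), and their median total UMIs are above those of the other NK barcodes in every library.

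With all NK cells, no gene separated the groups at the chosen threshold. UMI counts were summed per library and tested with edgeR's quasi-likelihood test, with Benjamini-Hochberg adjustment over 5856 genes and a threshold of 0.05. The call rate was 0% in each direction, and the lowest adjusted p was 0.999. At an unadjusted p under 0.05, 96 genes were higher (1.64%) and 70 lower (1.2%) in PD-L1 KO NK cells. DESeq2 called 1 gene, Cxcl10. With 2 libraries in each group, a gene that was not called may still differ.

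Without mixed barcodes, 9 of 4410 genes rose in PD-L1 KO NK cells (0.204%) and 0 fell (edgeR, adjusted p under 0.05). At an unadjusted p under 0.05, 3.88% were higher and 2.77% lower, and DESeq2 was not run on these sums. The 9 genes were Cxcl10, Isg15, Isg20, Slfn5, Plac8, Xcl1, Car2, Pmepa1 and Txnip. The expression filter asked for 10 UMIs at the median library size (34.3 CPM here) in at least 2 libraries. Cxcl10, Isg20, Slfn5, Plac8 and Pmepa1 passed it through the PD-L1 KO libraries alone, so these 5 could enter the test only with a higher PD-L1 KO level. When cells were instead thinned to at most 2000 UMIs each, 17 of 3384 genes rose (0.502%) and 0 fell, 3.93% were higher and 2.75% lower at an unadjusted p under 0.05, and 7 genes were shared, which is 41.2% of the thinned calls and 77.8% of the calls without mixed barcodes. Isg20 and Slfn5 did not reach the expression filter after thinning. Thinning kept the mixed barcodes, and its other calls included Cd74, H2-Ab1 and S100a9, members of the dendritic and neutrophil lists. Pmepa1, among the shared genes, was not called in a repeated draw of the thinning (edgeR adjusted p = 0.47).

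Cxcl10, an interferon-induced chemokine that attracts Cxcr3-bearing lymphocytes (chr5:92346638-92348889, minus strand, GRCm38 as in GENCODE M21), had 94 and 25 UMIs in PD-L1 KO NK cells without mixed barcodes, against 3 and 0 in WT NK cells. These are 332 and 91.8 CPM against 6.66 and 0 CPM. The groups did not overlap, but 1 cell of PD-L1 KO 1 held 90 of that library's UMIs. Over all NK cells there were 95 and 25 UMIs in PD-L1 KO lungs and 3 and 0 in WT lungs. With the top cell of every library left out of these, 5 and 14 UMIs remained in PD-L1 KO NK cells, against 2 and 0 in WT. The fitted log2 difference was 5.63 ± 0.67 (SE, edgeR adjusted p = 5.9e-05), a size that depends on how a count of 0 is handled. Only 3 and 6 PD-L1 KO cells and 3 and 0 WT cells held the transcript.

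Isg15, a ubiquitin-like protein induced by type I interferon (chr4:156199424-156200818, minus strand), was 138 and 151 CPM in PD-L1 KO NK cells and 28.9 and 53.3 CPM in WT NK cells without mixed barcodes. Both PD-L1 KO libraries were above both WT libraries. The log2 difference was 1.89 ± 0.31 (SE, edgeR adjusted p = 0.0037), and the call was lost without WT 1, at 1.42. With all NK cells the values were 150 and 140 CPM in PD-L1 KO lungs and 80.2 and 73.9 CPM in WT lungs, a log2 difference of 0.90 ± 0.21 that was not called. Neutrophils of the same libraries, gated on at least 20 UMIs of S100a8 and S100a9 together, expressed Isg15 at 1072 and 669 CPM in PD-L1 KO lungs and 739 and 1049 CPM in WT lungs.

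Isg20, an interferon-induced exonuclease (chr7:78913424-78920396, plus strand), had 11 and 13 UMIs in PD-L1 KO NK cells and 2 and 0 in WT NK cells without mixed barcodes, a ratio of pooled CPM of 16.2 with a 95% counting interval of 4.03 to 142. It reached the expression filter through PD-L1 KO alone, passed the test (edgeR adjusted p = 0.047) and was called in 0 of the 3 runs with 1 library left out that tested it. Slfn5, a member of the interferon-induced Schlafen family (chr11:82951349-82964840, plus strand), had 12 and 19 UMIs in PD-L1 KO NK cells and 2 and 2 in WT NK cells without mixed barcodes. It too reached the filter through PD-L1 KO alone. Its log2 difference was 3.31 ± 0.64 (SE, edgeR adjusted p = 0.024), and it was called in 1 of 4 runs with 1 library left out, that without WT 2. With mixed barcodes kept, Slfn5 was 64.1 and 162 CPM in PD-L1 KO lungs and 24.1 and 160 CPM in WT lungs, so the groups overlapped.

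**Figure D3:**
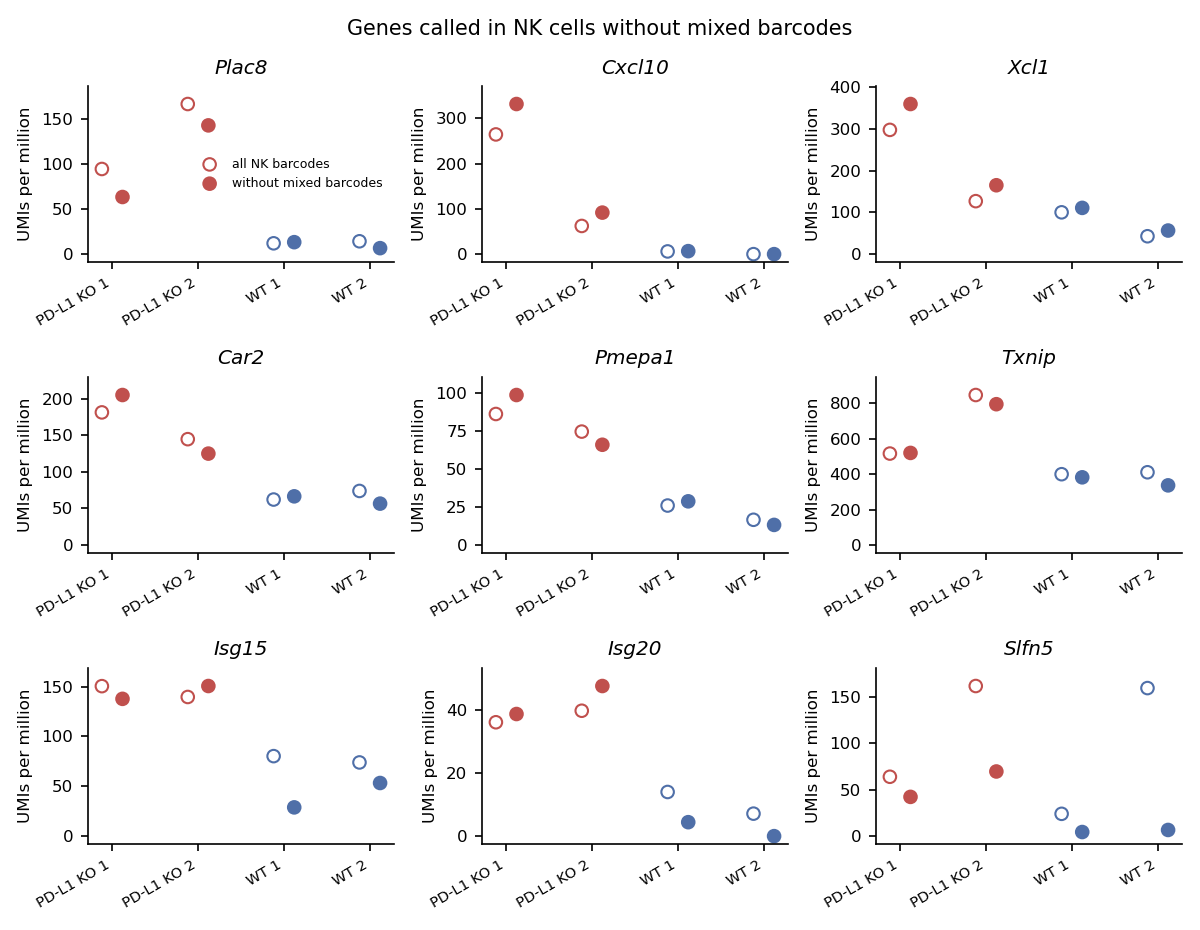
CPM in NK cells of each library for the 9 genes that passed the test without mixed barcodes, from all NK barcodes (open points) and without mixed barcodes (filled points). PD-L1 KO libraries are left of WT libraries, and for Slfn5 the WT 2 value is 160 CPM with all barcodes and 6.66 CPM without mixed ones.

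The promoters of 3 of these interferon-induced genes are shown because each holds the letters of the interferon-stimulated response element, a promoter site through which interferon turns genes on. The windows run from 250 bases before to 50 bases after the RefSeq start site (GRCm38.p6) and are printed 5' to 3' on the strand of the gene. Capitals mark matches to the motif, GAAA followed after any 2 bases by GAAA, or on the other strand TTTC, any 2 bases and TTTC, and in Isg15 3 overlapping matches form 1 run.
Cxcl10 promoter, chr5:92348840-92349139, minus strand: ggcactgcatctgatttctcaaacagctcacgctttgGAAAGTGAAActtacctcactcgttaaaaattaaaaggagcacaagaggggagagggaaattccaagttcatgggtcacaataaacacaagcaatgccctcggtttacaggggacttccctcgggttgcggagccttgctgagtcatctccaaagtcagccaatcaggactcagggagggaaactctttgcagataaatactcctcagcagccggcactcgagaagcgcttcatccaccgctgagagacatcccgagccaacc
Isg15 promoter, chr4:156200769-156201068, minus strand: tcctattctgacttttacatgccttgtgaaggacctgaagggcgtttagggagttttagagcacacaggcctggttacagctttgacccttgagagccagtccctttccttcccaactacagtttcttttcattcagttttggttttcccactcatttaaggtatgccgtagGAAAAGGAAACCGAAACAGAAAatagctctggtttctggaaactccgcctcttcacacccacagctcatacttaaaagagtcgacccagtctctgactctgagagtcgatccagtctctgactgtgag
Slfn5 promoter, chr11:82951852-82952151, plus strand: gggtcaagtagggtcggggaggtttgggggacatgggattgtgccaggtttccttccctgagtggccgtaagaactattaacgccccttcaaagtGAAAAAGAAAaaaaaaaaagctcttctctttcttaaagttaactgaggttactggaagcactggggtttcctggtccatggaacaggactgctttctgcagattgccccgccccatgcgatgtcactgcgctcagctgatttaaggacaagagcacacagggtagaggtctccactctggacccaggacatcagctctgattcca
The matches begin 213, 78 and 155 bases before the start sites of Cxcl10, Isg15 and Slfn5. Either form of the motif was in 3.44% of 32851 RefSeq promoter windows, and in any window of 24 of the 48 type I interferon genes with an entry (50%), against 3.99% of 27025 genes. The windows of Isg20, Plac8, Xcl1 and Txnip held no match, which says only that these letters are not in those windows.

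Cxcl10 and the other 5 genes that rose are not on the type I interferon list. Plac8, a small cysteine-rich protein of lymphoid and myeloid cells (chr5:100553725-100572245, minus strand), had 18 and 39 UMIs in PD-L1 KO NK cells without mixed barcodes, against 6 and 2 in WT NK cells. In CPM these were 63.6 and 143 against 13.3 and 6.66, with no overlap between groups. The log2 difference was 3.24 ± 0.49 (SE, edgeR adjusted p = 0.0016), and 3.29 ± 0.41 with all NK cells, where the adjusted p was 0.999. The call was lost without PD-L1 KO 2, at 2.55. Neutrophils expressed Plac8 at 835 and 639 CPM in PD-L1 KO lungs and 438 and 695 CPM in WT lungs. The remaining neutrophil list level was also highest in PD-L1 KO 2, at 162 CPM, and its part in the Plac8 difference was not tested.

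Xcl1, the chemokine by which NK cells attract cross-presenting dendritic cells (chr1:164931644-164935527, minus strand), was 360 and 165 CPM in PD-L1 KO NK cells and 111 and 56.6 CPM in WT NK cells without mixed barcodes. The groups did not overlap, and PD-L1 KO 1 was the highest. The log2 difference was 1.59 ± 0.30 (SE, edgeR adjusted p = 0.022) and was 0.92, not called, without PD-L1 KO 1. Among all NK cells, 21 and 16 PD-L1 KO cells held the transcript, against 10 and 9 WT cells.

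Car2, which encodes carbonic anhydrase II (chr3:14886273-14900770, plus strand), was 205 and 125 CPM in PD-L1 KO NK cells and 66.6 and 56.6 CPM in WT NK cells without mixed barcodes. Its log2 difference was 1.41 ± 0.28 (SE, edgeR adjusted p = 0.025), and the call was lost without PD-L1 KO 1. It was spread over many cells: 36.1% and 26.9% of PD-L1 KO NK cells held it, against 12.7% and 14.4% of WT NK cells. Pmepa1, an inhibitor of TGF-beta signalling that TGF-beta itself induces (chr2:173224458-173276533, minus strand), was 98.9 and 66.1 CPM in PD-L1 KO NK cells and 28.9 and 13.3 CPM in WT NK cells without mixed barcodes. Its log2 difference was 1.87 ± 0.40 (SE, edgeR adjusted p = 0.047), called in 2 of 4 runs with 1 library left out and lost without PD-L1 KO 1 and without WT 2. Txnip, a thioredoxin-binding protein that restrains glucose uptake (chr3:96557957-96561883, plus strand), was 519 and 793 CPM in PD-L1 KO NK cells and 382 and 336 CPM in WT NK cells without mixed barcodes. Its log2 difference was 0.87 ± 0.18 (SE, edgeR adjusted p = 0.031), and it was lost without PD-L1 KO 2, at 0.52. Of the 9 genes, Cxcl10 was called in all 4 runs with 1 library left out.

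Most of the tested members of the type I interferon response list were higher in PD-L1 KO NK cells. Of its 62 genes, 61 are in the files and 43 passed the expression filter with all NK cells. Of the 43, 9 passed through PD-L1 KO alone, with neither WT library at 24.4 CPM, and 0 through WT alone, against 2.73% and 1.23% of all genes tested. Those 9 could only be higher, so the counts over the tested members are a description and no evidence of a direction. Of the 43, 36 were higher and 7 lower in PD-L1 KO NK cells, 10 had an unadjusted p under 0.05 and all 10 were higher, and 0 were called. Of the 34 that did not pass through 1 group alone, 27 were higher. In 24 of the 43 both PD-L1 KO libraries were above both WT libraries, and in 0 both were below. Over all tested genes these shares were 15.4% and 15.8%. The median log2 difference was 0.49, against −0.012 over all 5856 genes. The 24 and the median include the 9 genes that passed through PD-L1 KO alone, whose groups could not overlap. Neither comparison with all genes is therefore evidence of a direction. Without mixed barcodes 32 were tested, 8 of them through PD-L1 KO alone, 29 were higher, with 21 of the other 24, 3 rose (Isg15, Isg20 and Slfn5), 21 had no overlap with PD-L1 KO above, and the median was 0.57. The corresponding shares without overlap were then 17.7% above and 18.5% below over all genes. The 21 without overlap and the median again include the 8 genes that passed through PD-L1 KO alone.

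Among antiviral effectors on the list, Rsad2 (viperin) had 18 and 6 UMIs in PD-L1 KO NK cells without mixed barcodes, against 1 and 0 in WT, a ratio of 32.4 with a 95% counting interval of 5.29 to 1334. It was too sparse to enter that fit, and with all NK cells its log2 difference was 3.11 ± 0.59 without a call. Ifit3 had 7 and 14 UMIs in PD-L1 KO NK cells and 0 and 0 in WT without mixed barcodes, at least 9.46-fold higher against a floor of 3 UMIs over both WT libraries. All of these are low counts. Ifit1 had 13 and 13 UMIs in all PD-L1 KO NK cells and 6 and 4 in WT. Ifit2 had 24 and 17 UMIs in all PD-L1 KO NK cells and 13 and 2 in WT. Neither gene overlapped between groups. The RNA sensor Ifih1 (MDA5) had 20 and 15 UMIs in PD-L1 KO NK cells and 5 and 5 in WT, a log2 difference of 2.05 ± 0.47 that was not called. With all NK cells, Rsad2, Ifit1 and Ifih1 passed the expression filter through PD-L1 KO alone. Their groups could therefore not overlap, and each could only be higher in PD-L1 KO.

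Some other genes of the interferon system overlapped between groups or were lower in PD-L1 KO NK cells. Shisa5 was 894 and 775 CPM in all PD-L1 KO NK cells and 794 and 568 CPM in WT. Sp100 was 343 and 401 CPM in PD-L1 KO NK cells and 439 and 277 CPM in WT. Both overlapped between groups. Irf7, the factor that amplifies type I interferon production, was 83.6 and 82.2 CPM in PD-L1 KO NK cells and 106 and 83.5 CPM in WT. Ifnar1, a chain of the type I interferon receptor, was 120 and 84.7 CPM in PD-L1 KO NK cells and 148 and 143 CPM in WT, a log2 difference of −0.52 ± 0.25 that was not called.

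Summed over the list, type I interferon transcripts made 4430 and 5102 CPM in PD-L1 KO NK cells and 3553 and 4090 CPM in WT NK cells. Without mixed barcodes the sums were 4308 and 5009 CPM in PD-L1 KO and 3322 and 3005 CPM in WT. The groups did not overlap in either form, but an exact permutation test of such sums cannot go below p = 0.333. Per cell, the median was 31.6 and 37.1 list UMIs per 10000 in PD-L1 KO NK cells and 31.5 and 27.5 in WT NK cells, so PD-L1 KO 1 and WT 1 had nearly equal typical cells. T cells of the same libraries had sums of 5126 and 8338 CPM in PD-L1 KO lungs and 5009 and 4703 CPM in WT lungs. Sums of other lists were also apart in NK cells without mixed barcodes. PD-L1 KO was higher for the trafficking, immature NK, interferon gamma and immediate early lists. It was lower for the granule and death ligand, cytokine and chemokine, mature NK and heat shock lists.

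**Figure D4:**
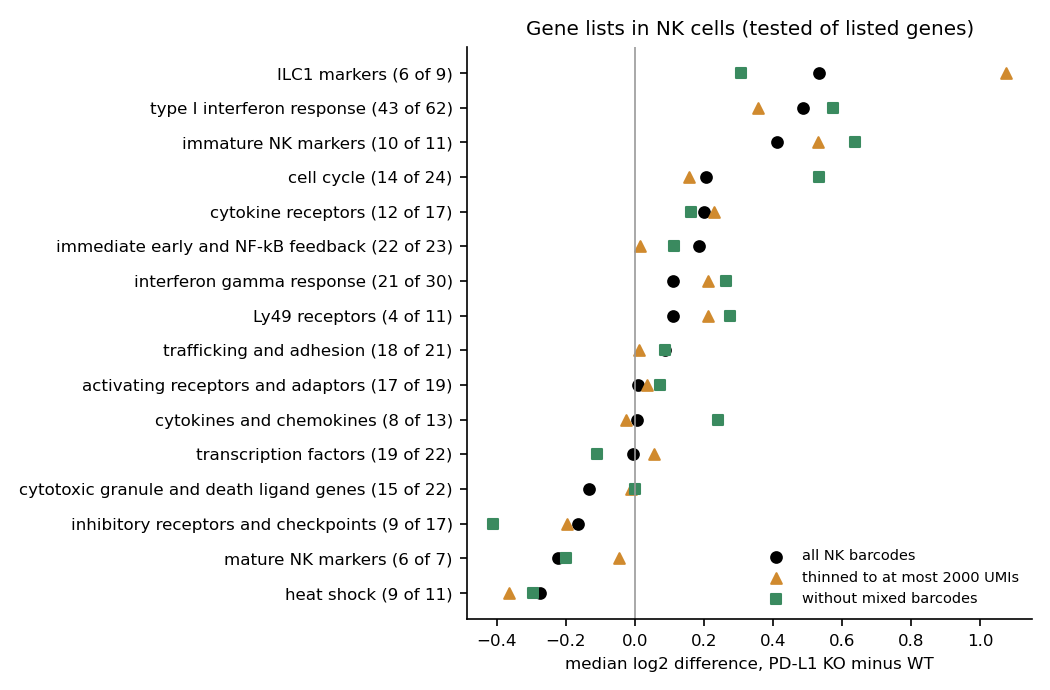
Median log2 difference, PD-L1 KO minus WT, of the tested members of 16 gene lists in NK cells, with all NK barcodes, with cells thinned to at most 2000 UMIs, and without mixed barcodes. The type I interferon list lies at 0.49, 0.36 and 0.57, the immature NK list at 0.41, 0.53 and 0.64, and the heat shock list at −0.27, −0.36 and −0.30.

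The interferon gamma response list holds guanylate-binding proteins, immunoproteasome subunits and MHC class I genes, and its median lay nearer to 0. Of 21 tested members of 30, 18 were higher in all PD-L1 KO NK cells, 2 had an unadjusted p under 0.05, 0 were called, and the median log2 difference was 0.11. Without mixed barcodes 17 of 19 were higher, 7 at an unadjusted p under 0.05, and the median was 0.26. H2-T23, which encodes the Qa-1 ligand of NKG2A, was 189 and 167 CPM in PD-L1 KO NK cells and 92.3 and 119 CPM in WT. Socs1, a feedback inhibitor of cytokine signals, was 103 and 97.2 CPM in PD-L1 KO NK cells and 64.2 and 54.8 CPM in WT. Neither overlapped between groups, and neither was called. H2-K1, a classical MHC class I gene, was 2073 and 2121 CPM in PD-L1 KO NK cells and 2008 and 1932 CPM in WT. H2-D1 was 3611 and 2936 CPM in PD-L1 KO NK cells and 2839 and 2986 CPM in WT. The near-identical sequences of these genes make the split of reads between them uncertain.

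None of the activating receptors and adaptors was called by edgeR with all NK cells or without mixed barcodes. Of 17 tested members of 19, 10 were higher and 7 lower in PD-L1 KO NK cells, 0 had an unadjusted p under 0.05, and the median log2 difference was 0.0098. Without mixed barcodes 11 of 17 were higher, 1 at an unadjusted p under 0.05, and the median was 0.073. Tyrobp, the DAP12 adaptor that couples several activating receptors, was 1942 and 1790 CPM in PD-L1 KO NK cells and 2050 and 1712 CPM in WT. Ncr1 was 1524 and 1346 CPM in PD-L1 KO NK cells and 1798 and 1409 CPM in WT, as a description of a gene the gate used. Sh2d1b1, the EAT-2 adaptor of SLAM-family receptors, was 47.4 and 29.9 CPM in PD-L1 KO NK cells and 22.1 and 19.1 CPM in WT, with no overlap and no call. It passed the expression filter through PD-L1 KO alone, so its groups could not overlap. Fcgr3, the antibody receptor CD16, was 69.6 and 74.8 CPM in PD-L1 KO and 64.2 and 35.8 CPM in WT.

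Of the inhibitory receptors and checkpoints, 9 of 17 passed the filter, 2 were higher and 7 lower in PD-L1 KO NK cells, and the median log2 difference was −0.16. Without mixed barcodes 5 were tested, 1 was higher and 4 lower, 1 of these at an unadjusted p under 0.05, and the median was −0.41. Klrd1, the CD94 chain of NKG2A, was 852 and 835 CPM in PD-L1 KO NK cells and 951 and 703 CPM in WT. Klrc1 (NKG2A) was 187 and 120 CPM in PD-L1 KO NK cells and 201 and 129 CPM in WT. Both overlapped between groups. Klrb1b, an inhibitory NKR-P1 receptor, had 5 and 5 UMIs in PD-L1 KO NK cells and 24 and 13 in WT, with no overlap. It passed the expression filter through WT alone, so it could only be lower in PD-L1 KO. Its log2 difference of −1.58 ± 0.48 was not called. Klrg1, an inhibitory receptor of mature NK cells, was 111 and 122 CPM in PD-L1 KO and 227 and 124 CPM in WT.

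The receptor of PD-L1 was close to undetected in NK cells. Pdcd1 (PD-1) had 1 and 0 UMIs in PD-L1 KO NK cells and 0 and 0 in WT NK cells, where a count of 0 allows up to 6.02 and 7.15 CPM. In T cells of the same libraries it was 72.5 and 53.6 CPM in PD-L1 KO lungs and 30.0 and 11.3 CPM in WT lungs. Other checkpoint receptors were as sparse. Tigit had 0 and 0 UMIs in PD-L1 KO NK cells and 0 and 1 in WT. Havcr2 (TIM-3) had 0 and 1 UMIs in PD-L1 KO NK cells and 0 and 0 in WT. Lag3 had 4 and 2 UMIs in PD-L1 KO NK cells and 3 and 0 in WT. Cd274 itself had 5 and 8 UMIs in PD-L1 KO NK cells and 4 and 3 in WT.

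Of the Ly49 receptors, which bind MHC class I, 4 of 11 passed the filter, 3 were higher and the median log2 difference was 0.11. Without mixed barcodes 3 were tested, all 3 were higher, and the median was 0.28. Klra3 was 365 and 618 CPM in PD-L1 KO NK cells and 469 and 446 CPM in WT. Klra7 was 103 and 110 CPM in PD-L1 KO NK cells and 106 and 88.2 CPM in WT. Klra9 was 78.0 and 47.4 CPM in PD-L1 KO NK cells and 54.2 and 52.5 CPM in WT. The 3 overlapped between groups with all NK cells, and reads of these near-identical paralogs may be divided among them. Klra8 had 0 UMIs in all 4 libraries. Balb/c mice are known to lack this receptor, Ly49H.

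No gene of the killing machinery was called by edgeR with all NK cells or without mixed barcodes, though some calls were made in other forms. Of 15 tested granule and death ligand genes of 22, 5 were higher and 10 lower in PD-L1 KO NK cells, 0 had an unadjusted p under 0.05, and the median log2 difference was −0.13. Without mixed barcodes 6 of 13 were higher, 2 at an unadjusted p under 0.05, 7 were lower, 1 at that p, and the median was −0.00055. Gzma was 10428 and 11410 CPM in PD-L1 KO NK cells and 14633 and 11365 CPM in WT, with overlap. Prf1 (perforin) was 1396 and 1019 CPM in PD-L1 KO NK cells and 1862 and 1438 CPM in WT, with no overlap. Both genes were part of the gate, and these values are a description. Gzma was called lower with the mitochondrial limit at 5% (−0.40, edgeR adjusted p = 0.0072). With mixed barcodes left out, it was called without PD-L1 KO 2 (−0.34, edgeR adjusted p = 0.0011), and Prf1 was called without PD-L1 KO 1 (−0.52, edgeR adjusted p = 0.0046). Gzmb, the granzyme that cuts caspases, was 822 and 538 CPM in PD-L1 KO NK cells and 833 and 677 CPM in WT, a log2 difference of −0.16 ± 0.24. Nkg7, a granule protein needed for degranulation, was 2811 and 2612 CPM in PD-L1 KO and 3533 and 2482 CPM in WT. Tnfsf10 (TRAIL) had 14 and 10 UMIs in PD-L1 KO NK cells and 12 and 45 in WT. Gzmc had 15 UMIs in PD-L1 KO 1 and 0 in each of the other libraries.

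Among cytokines and chemokines, 8 of 13 were tested, 4 were higher and 4 lower, and the median log2 difference was 0.0051. Without mixed barcodes 4 of 7 were higher, Xcl1 was the single call, and the median was 0.24. Ccl5, which attracts T cells and dendritic cells, was 16718 and 18285 CPM in PD-L1 KO NK cells and 23495 and 20466 CPM in WT without mixed barcodes, with WT above PD-L1 KO throughout. The log2 difference was −0.31 ± 0.07 and just missed the threshold (SE, edgeR adjusted p = 0.051). It passed without PD-L1 KO 1, without PD-L1 KO 2 and without WT 2, at −0.25, −0.40 and −0.41. With all NK cells the Ccl5 difference was −0.41 without a call, and it ran from −0.66 without WT 2 to −0.10 without WT 1. At the 5% mitochondrial limit it was −0.55 and was called (edgeR adjusted p = 0.001). Ccl4 was 1535 and 1024 CPM in all PD-L1 KO NK cells and 1627 and 1157 CPM in WT. Ifng, the main cytokine of NK cells, was 83.6 and 79.8 CPM in PD-L1 KO NK cells and 96.3 and 47.7 CPM in WT, and a UMI was found in 20.6% and 21.2% of PD-L1 KO and 17.8% and 15.5% of WT NK cells.

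Of the cytokine receptors, 12 of 17 were tested, 7 were higher with a median log2 difference of 0.20, and 0 were called. Without mixed barcodes 8 of 12 were higher, 0 were called, and the median was 0.16. Il2rb was 950 and 665 CPM in PD-L1 KO NK cells and 1037 and 792 CPM in WT. Il7r, the IL-7 receptor of immature NK cells and innate lymphoid cells, had 35 and 20 UMIs in PD-L1 KO NK cells and 8 and 16 in WT, a log2 difference of 1.45 ± 0.53 without a call. Il10ra was 80.8 and 72.3 CPM in PD-L1 KO and 66.2 and 47.7 CPM in WT.

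Trafficking and adhesion genes gave 18 tested of 21, 10 higher, 8 lower and a median of 0.09. Without mixed barcodes 10 of 16 were higher, 6 lower and the median was again 0.09, with 3 higher and 2 lower at an unadjusted p under 0.05. Rgs1, which dampens chemokine receptor signals, was 432 and 389 CPM in PD-L1 KO NK cells and 309 and 277 CPM in WT, with no overlap and no call. Itga2, the DX5 antigen of NK cells, was 114 and 110 CPM in PD-L1 KO and 193 and 143 CPM in WT, also with no overlap and no call. S1pr5, which carries mature NK cells out of bone marrow and lymph nodes, was 47.4 and 42.4 CPM in PD-L1 KO and 64.2 and 71.5 CPM in WT. Cxcr3, the receptor for Cxcl10, had 11 and 10 UMIs in PD-L1 KO NK cells and 6 and 14 in WT.

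Of the transcription factors, 9 of 19 tested members were higher in all PD-L1 KO NK cells and the median log2 difference was −0.0049. Without mixed barcodes 5 of 15 were higher and 10 lower, 0 were called, and the median was −0.11. Eomes was 332 and 277 CPM in PD-L1 KO NK cells and 447 and 329 CPM in WT. Tbx21 (T-bet) was 111 and 120 CPM in PD-L1 KO and 138 and 83.5 CPM in WT. These 2 partner factors of NK identity overlapped between groups. Irf8 was 1646 and 1219 CPM in PD-L1 KO and 1651 and 1350 CPM in WT. Klf2, which keeps lymphocytes quiescent, was 1777 and 2094 CPM in PD-L1 KO and 2187 and 2082 CPM in WT. Batf had 9 and 12 UMIs in PD-L1 KO NK cells and 5 and 4 in WT, with no overlap and no call. It passed the expression filter through PD-L1 KO alone, so its groups could not overlap.

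Most markers of the immature end of NK development were higher in PD-L1 KO NK cells. With all NK cells, 10 of 11 were tested, 8 were higher, 3 had an unadjusted p under 0.05, 0 were called, and the median log2 difference was 0.41. Without mixed barcodes 8 were tested, 7 were higher, 6 had an unadjusted p under 0.05, Xcl1 was called, and the median was 0.64. Emb, an immunoglobulin-family adhesion protein, was 367 and 294 CPM in PD-L1 KO NK cells and 195 and 220 CPM in WT without mixed barcodes, a log2 difference of 0.70 ± 0.19 without a call. Thy1 had 23 and 41 UMIs in all PD-L1 KO NK cells and 29 and 12 in WT. Ltb (lymphotoxin beta) had 205 and 190 UMIs in PD-L1 KO NK cells and 239 and 135 in WT. Cd7 had 91 and 66 UMIs in PD-L1 KO NK cells and 93 and 49 in WT. In CPM, which allows for the larger WT 1 sum, Thy1 alone of these 3 had no overlap. Cd27, a marker that the list counts as immature, went the other way, with 20 and 16 UMIs in PD-L1 KO NK cells and 34 and 26 in WT.

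The remaining members of that list overlapped between groups with all NK cells. Tcf7, a factor of early lymphoid development, had 17 and 10 UMIs in PD-L1 KO NK cells and 11 and 14 in WT. Kit, the stem cell factor receptor, had 6 and 8 UMIs in PD-L1 KO NK cells and 0 and 25 in WT. Ctla2a had 220 and 292 UMIs in PD-L1 KO NK cells and 188 and 561 in WT. Most of the Ctla2a excess of WT 2 lay in mixed barcodes: without them it was 579 and 654 CPM in PD-L1 KO and 386 and 453 CPM in WT. Summed, the immature list made 2556 and 2119 CPM in PD-L1 KO NK cells and 1580 and 1562 CPM in WT without mixed barcodes. With all NK cells the sums were 2388 and 2049 CPM in PD-L1 KO and 1519 and 2263 CPM in WT, and they overlapped.

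Markers of mature NK cells gave 6 tested of 7, 1 higher, 5 lower, 0 called and a median log2 difference of −0.22. Without mixed barcodes these counts were the same and the median was −0.20. Klrg1 had 40 and 49 UMIs in PD-L1 KO NK cells and 113 and 52 in WT. S1pr5 had 17 and 17 UMIs in PD-L1 KO NK cells and 32 and 30 in WT. These 2 had no overlap in CPM, with WT above. Itgam (CD11b) had 54 and 40 UMIs in PD-L1 KO NK cells and 76 and 60 in WT. Zeb2, a factor that drives late maturation, had 148 and 192 UMIs in PD-L1 KO NK cells and 284 and 184 in WT. Cma1, a protease of mature NK cells, had 111 and 119 UMIs in PD-L1 KO NK cells and 193 and 128 in WT. These 3 overlapped in CPM, and so did the sparser members. Prdm1 (Blimp-1) had 36 and 26 UMIs in PD-L1 KO NK cells and 37 and 20 in WT. Cx3cr1, the fractalkine receptor, had 5 and 7 UMIs in PD-L1 KO NK cells and 24 and 7 in WT and was not tested. The list summed to 1145 and 1122 CPM in PD-L1 KO NK cells and 1523 and 1147 CPM in WT, so WT 1 stood above the other 3 libraries.

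Cells were also sorted by which of the 2 lists they carried, as shares expected at 1500 UMIs in cells without mixed barcodes. Immature markers alone were expected in 24.5% and 23% of PD-L1 KO NK cells and 16.2% and 17.3% of WT NK cells, with no overlap. Mature markers alone were expected in 20.9% and 27.5% of PD-L1 KO and 27.7% and 36.7% of WT NK cells, also with no overlap. Without thinning, immature markers alone were found in 11 of 87 and 13 of 92 PD-L1 KO cells and in 13 of 147 and 5 of 89 WT cells. Ccl5 was 7276 and 4547 CPM in the PD-L1 KO cells with immature markers alone and 10171 and 6648 CPM in those of WT. It was 23985 and 27426 CPM in PD-L1 KO cells with mature markers alone and 23344 and 26065 CPM in those of WT, so in every library the cells with mature markers had more. With 2 libraries a group, an exact permutation test of these shares cannot go below 0.333.

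**Figure D5:**
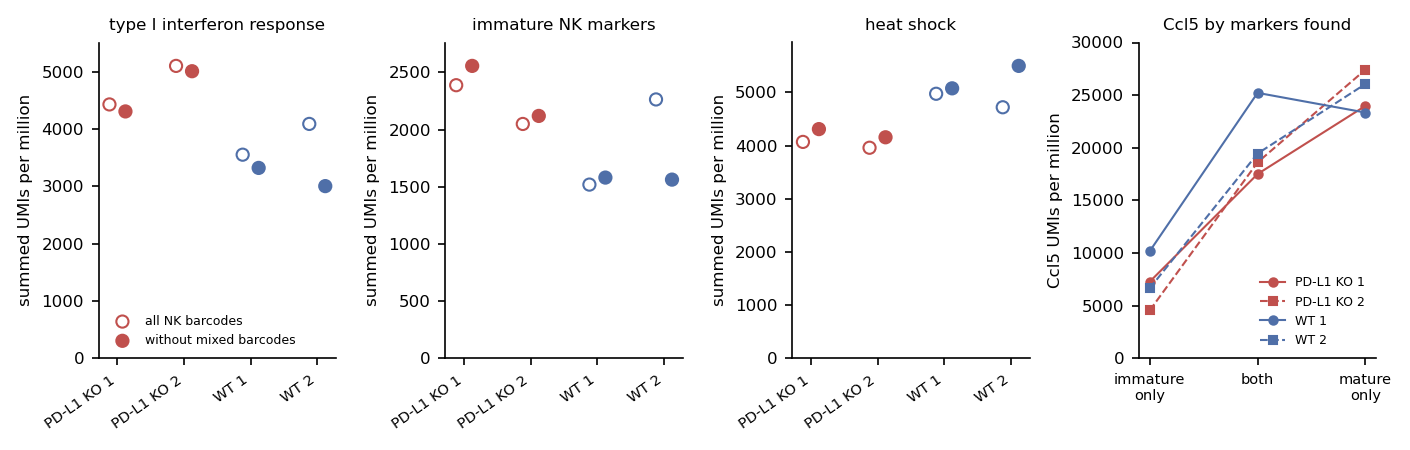
Summed CPM of the type I interferon, immature NK and heat shock lists in NK cells of each library, from all NK barcodes (open points) and without mixed barcodes (filled points), and Ccl5 CPM by which markers were found, without mixed barcodes (lines join the values of 1 library). PD-L1 KO libraries are left of WT libraries, and Ccl5 is 4547 to 10171 CPM in cells with immature markers alone and 23344 to 27426 CPM in cells with mature markers alone.

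Markers of type 1 innate lymphoid cells (ILC1), tissue-resident relatives of NK cells, were sparse and uneven between libraries. Of 9 members 6 were tested, 4 were higher, 0 were called, and the median log2 difference was 0.53. Without mixed barcodes 4 of 5 were higher, 0 were called, and the median was 0.31. Itga1 (CD49a), a collagen-binding integrin, had 53 and 120 UMIs in PD-L1 KO NK cells and 21 and 90 in WT. Tmem176a had 57 and 50 UMIs in PD-L1 KO NK cells and 12 and 60 in WT. Tmem176b had 38 and 35 UMIs in PD-L1 KO NK cells and 13 and 74 in WT. WT 1 was the lowest in all 3. Cxcr6, the receptor of Cxcl16, had 16 and 4 UMIs in PD-L1 KO NK cells and 11 and 2 in WT. Inpp4b had 19 and 5 UMIs in PD-L1 KO NK cells and 11 and 13 in WT. Cd200r1 had 2 and 4 UMIs in PD-L1 KO NK cells and 7 and 2 in WT, and these 6 overlapped in CPM. Il7r, also on the list, did not, at 97.5 and 49.8 CPM in PD-L1 KO NK cells and at most 38.2 CPM in WT. Without mixed barcodes Itga1 was 17.7 and 40.4 CPM in PD-L1 KO and 37.7 and 16.7 CPM in WT. The whole list summed to 388 and 173 CPM in PD-L1 KO NK cells and 158 and 260 CPM in WT without mixed barcodes, with overlap.

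Most heat shock genes, which encode chaperones of protein folding, were lower in PD-L1 KO NK cells. Of 9 tested members of 11, 1 was higher and 8 lower in PD-L1 KO NK cells, and in those 8 both PD-L1 KO libraries were below both WT libraries, as in 15.8% of all genes tested. The median log2 difference was −0.27, 2 had an unadjusted p under 0.05, and 0 were called. Without mixed barcodes 1 of 9 was higher, 7 were below WT without overlap, as in 18.5% of all genes, 5 were lower at an unadjusted p under 0.05, 0 were called, and the median was −0.30. Hspa8 was 1195 and 1284 CPM in PD-L1 KO NK cells and 1503 and 1481 CPM in WT. Hsp90aa1 was 390 and 389 CPM in PD-L1 KO NK cells and 542 and 482 CPM in WT. Hspe1, a mitochondrial chaperonin, was 248 and 197 CPM in PD-L1 KO NK cells and 293 and 351 CPM in WT. The groups did not overlap in any of the 3. Summed, the list made 4070 and 3960 CPM in PD-L1 KO and 4975 and 4722 CPM in WT. These transcripts also respond to tissue handling, whose part was not tested.

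Immediate early and NF-kB feedback genes, which mark recent stimulation and also tissue digestion, gave 22 tested of 23, 18 higher and a median of 0.19 with all NK cells, and 13 of 20 higher and a median of 0.11 without mixed barcodes. Dusp1 was 699 and 703 CPM in all PD-L1 KO NK cells and 500 and 572 CPM in WT. Without mixed barcodes it was 290 and 246 CPM in PD-L1 KO and 280 and 280 CPM in WT, so its groups then overlapped. Nfkbiz was 124 and 140 CPM in PD-L1 KO and 75.5 and 79.9 CPM in WT without mixed barcodes, and was not called.

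Few NK cells were dividing. At least 3 UMIs of 10 mitosis genes were found in 4 and 3 PD-L1 KO NK cells (4.12% and 2.88%) and 2 and 4 WT NK cells (1.27% and 4.12%). Among T cells the shares were 8.36% and 13.4% in PD-L1 KO lungs and 6.23% and 3.43% in WT lungs. Mki67 had 11 and 70 UMIs in PD-L1 KO NK cells and 5 and 33 in WT, with overlap. The cell cycle list gave 14 tested of 24, 9 higher, 0 called and a median log2 difference of 0.21. Without mixed barcodes 8 of 11 were higher, 4 of them at an unadjusted p under 0.05, 0 were called, and the median was 0.53. The list sums overlapped there, at 1324 and 3055 CPM in PD-L1 KO and 1207 and 1619 CPM in WT. Few cells carried the counts: 3 NK cells held 290 of the 317 UMIs of the mitosis genes in PD-L1 KO 2. In WT 2, 4 cells held 100 of 123, and PD-L1 KO 1 and WT 1 had 43 and 41 in all.

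Some differences that were large with all NK cells lay mostly in mixed barcodes. The MHC class II invariant chain Cd74, a product of antigen-presenting cells, was 329 and 1047 CPM in all PD-L1 KO NK cells and 38.1 and 272 CPM in WT. Without mixed barcodes Cd74 was 56.5 and 88.1 CPM in PD-L1 KO and 31.1 and 36.6 CPM in WT. H2-Ab1 was 134 and 451 CPM in all PD-L1 KO NK cells and 24.1 and 83.5 CPM in WT. Without mixed barcodes H2-Ab1 was 53.0 and 69.8 CPM in PD-L1 KO and 20 and 30 CPM in WT, so both class II genes kept the order of the groups at a lower level. Both are on the dendritic cell list, which helped to define mixed barcodes. Their fall therefore follows from that definition and is not a separate result. Tpd52, among the 8 genes of smallest p with all NK cells, had 29 and 29 UMIs in PD-L1 KO NK cells and 16 and 12 in WT. Without mixed barcodes Tpd52 was 21.2 and 11.0 CPM in PD-L1 KO and 6.66 and 13.3 CPM in WT, where the groups overlapped. Phf11b and Tmem2, also among those 8, had no overlap in either form and were not called. Without mixed barcodes Phf11b, an interferon-list member, was 88.3 and 121 CPM in PD-L1 KO and 39.9 and 46.6 CPM in WT. Tmem2, a cell-surface hyaluronidase, was then 106 and 106 CPM in PD-L1 KO and 66.6 and 40.0 CPM in WT.

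Whether a difference was particular to NK cells was tested against T cells of the same libraries (1167 cells), as the interaction of cell type and group with library as a block. With all cells, 8728 genes were tested and none was called (edgeR, lowest adjusted p = 0.11, for Plac8), with 2.21% higher and 1.66% lower at an unadjusted p under 0.05. DESeq2 called 0. The 5 genes of smallest p were Plac8, Il7r, Klk1, Atf3 and Tpd52. Without mixed barcodes of either cell type, 24 of 7231 genes were called, 14 with a higher difference in NK cells (0.194%) and 10 with a lower one (0.138%). The shares at an unadjusted p under 0.05 were 3.5% and 3.11%. The SE and p of this fit share the estimate of spread over genes and can understate how far a gene's own libraries differ. For Gzmb the difference ran from −3.41 to −1.33 with 1 library left out, against an SE of 0.29.

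Among the calls of smallest p were effector genes that rose in PD-L1 KO T cells and had differences near 0 in NK cells. Ccl4, a chemokine of activated lymphocytes, was 95.6 and 181 CPM in PD-L1 KO T cells and 47.0 and 26.7 CPM in WT T cells without mixed barcodes. Its log2 difference was 1.85 in T cells (edgeR adjusted p = 0.011) and −0.03 in NK cells, and the difference between them was −1.85 ± 0.21 (SE, edgeR adjusted p = 2.6e-14). Ccl3 was 23.7 and 47.1 CPM in PD-L1 KO T cells and 7.38 and 0.722 CPM, both low counts, in WT T cells. Its log2 difference in NK cells was lower by −3.27 ± 0.45 (SE, edgeR adjusted p = 5.4e-10), and by −5.14 to −2.55 with 1 library left out. Both were called in all 4 runs with 1 library left out. Gzmb was 41.5 and 140 CPM in PD-L1 KO T cells and 13.8 and 15.9 CPM in WT T cells, a log2 difference of 2.44 (edgeR adjusted p = 0.031), and the difference between cell types was −2.43 ± 0.29 (SE, edgeR adjusted p = 5.9e-14). That call was lost without PD-L1 KO 2, at −1.33. NK cells held more of each transcript than T cells in every library: Ccl4 was 1783 and 1359 CPM in PD-L1 KO NK cells and 1638 and 1592 CPM in WT NK cells without mixed barcodes. AW112010, a long noncoding RNA locus of activated lymphocytes, differed between cell types by −0.89 ± 0.12 and was likewise lost without PD-L1 KO 2.

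Plac8 had the smallest p of the genes higher in NK cells. In T cells without mixed barcodes it was 31.1 and 76.3 CPM in PD-L1 KO and 80.2 and 61.4 CPM in WT, a log2 difference of −0.53. The difference between NK and T cells was 3.76 ± 0.51 (SE, edgeR adjusted p = 5.1e-10), called in all 4 runs with 1 library left out. Txnip (0.99), Emb (0.97), Il7r (1.75), Slfn5 (3.07) and Cxcl10 (3.13) also had a higher log2 difference in NK cells than in T cells and were called. Slfn5 was lost without WT 1, Txnip without PD-L1 KO 2 and without WT 2, and Il7r without PD-L1 KO 1 and without WT 1. Emb was called in 1 of 4 such runs, and Cxcl10 was lost without PD-L1 KO 1, where the difference was 1.30, and without WT 2. Isg15 was not: it was 79.3 and 232 CPM in PD-L1 KO T cells and 27.7 and 26.7 CPM in WT T cells, and the difference between cell types was −0.49 (edgeR adjusted p = 0.94). Isg20, Pmepa1, Car2 and Xcl1 were not called in this test either. Pmepa1 was itself called higher in PD-L1 KO T cells without mixed barcodes (log2 difference 1.06, edgeR adjusted p = 0.029). Ccl5 had a log2 difference lower by −0.43 in NK cells than in T cells (SE 0.09, edgeR adjusted p = 0.00088), which became −0.08 and −0.07 without PD-L1 KO 1 and without WT 2.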

How the data were processed

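NK cells of 4 lung libraries were described, 2 with PD-L1 KO and 2 with WT 4T1 cells injected. The deposited values are whole-number UMI counts per gene and barcode, made by the authors with Cell Ranger 3.1.0 and STAR on mm10, per the submitters' processing notes; free RNA was not subtracted. All else was computed here from those counts: barcodes were filtered and gated, NK UMIs were summed per library (CPM is relative to those sums), and edgeR 4.0.16 in R 4.3.3 was used with TMM scaling, its default expression filter and Benjamini-Hochberg adjustment. Members of the gate, gene lists and tests were chosen with earlier results of these data known. Genes named were the gate genes and Eomes, the 8 of smallest p, per list the 2 highest and the 3 of smallest p, 6 fixed genes, and the 5 of smallest interaction p; others were named after their values were seen.

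Mixed barcodes were defined, and left out, after the data were seen; the 7 lists used were those of neutrophils, endothelium, dendritic cells, fibroblasts, macrophages and monocytes, red cells and platelets, and basophils and mast cells. Scrublet (scanpy 1.11.5) marked doublets in an alternative. Other alternatives were DESeq2 1.42.0, upper-quartile scaling, no filter, a replicate block, other gates, mitochondrial limits and denominators, thinning, and leaving out each library. Exact tests used scipy 1.17.1. GENCODE M21 gave coordinates for 31011 of 31053 gene IDs. The scripts were tested on simulated counts. Counting intervals cover counting error only. Some results are not reported here.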

Additional observations from a re-analysis of the deposited data

Results flagged for a closer look

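The PD-L1 KO difference of 5 genes was compared between NK and T cells of the same libraries, without mixed barcodes, and gave the 5 smallest p-values of the interaction test. On the log2 scale, NK minus T, the difference was −1.85 for Ccl4, −2.43 for Gzmb, −0.89 for AW112010, 3.76 for Plac8 and −3.27 for Ccl3. With mixed barcodes kept, none of the 5 passed the threshold in edgeR.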

How the results depend on the processing

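The number of genes called in NK cells was 0 with all NK cells, and also with upper-quartile scaling, a stricter gate, a gate without granule genes and the highest Scrublet scores left out. It was 1 with DESeq2, 46 with no filter on low counts, 14 with a mitochondrial limit of 5%, 17 with thinning, 15 with a repeated draw of the thinning and 9 without mixed barcodes. With 1 library left out it ranged from 0 to 103, the highest being without WT 2, with 9 without WT 1. With mixed barcodes also left out it was 34 without PD-L1 KO 1, 18 without PD-L1 KO 2, 9 without WT 1 and 21 without WT 2. With the replicate number as a block, 6 genes were called; the labels do not say that the numbers pair libraries, and the deviations of same-numbered libraries correlated at 0.41 over genes. The NK against T comparison called 0 genes with DESeq2 and with CD8 T cells, 24 without mixed barcodes, and between 1 and 54 with 1 library left out, the highest again without WT 2.

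The difference in NK share was 0.0786 points with the 5% mitochondrial limit and 1.46 points among lymphocytes, and ran from −1.60 to 0.642 points with 1 library left out. The type I interferon median stayed above 0: it was 0.60 with no filter, 0.36 with thinning and 0.57 without mixed barcodes, and ran from 0.42 to 0.78 with 1 library left out. Over 24 named genes and 442 alternatives 8 changed sign. All 8 came from leaving out a library. With 1 library left out, Gzma ran from −0.44 to 0.033, above 0 without PD-L1 KO 1 and mixed barcodes. Gzmb ran from −0.48 to 0.12, above 0 without PD-L1 KO 2, without WT 1 and, with mixed barcodes left out, without WT 2. Ncr1 ran from −0.34 to 0.033, above 0 without WT 1. Slfn5 ran from −0.49 to 3.64, below 0 without PD-L1 KO 2 and without WT 1 while mixed barcodes were kept. The cause was not tested. In runs that leave 1 library in a group, that library is assumed to vary like the others. The 455 cells limit what could be tested: genes under the expression filter have no value.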
